A study of Mus musculus with 28 samples.

Results

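The integrated stress response genes described here were 10 genes taken by symbol from 20891 in the tables, where they stand in capitals: ATF4, ATF3, ATF5, DDIT3, DDIT4, CHAC1, TRIB3, ASNS, SESN2 and CEBPB. They are written below as mouse genes (Atf4 and so on). All 10 were found and all were among the 10985 genes tested. The cells were CD4+ T cells from the spleen of C57BL/6 mice, sorted as naive cells (CD44-, CD62L+, CD25-) and activated with antibodies to CD3 and CD28 (1 µg/ml of each) fixed to the plate. They were cultured toward non-pathogenic Th17 cells (Th17n) with IL-6 at 25 ng/ml and TGFb1 at 2 ng/ml, or toward induced regulatory T cells (iTreg) with TGFb1 at 2 ng/ml. Each culture was kept untreated (ctrl) or with 100 µM DFMO, which inhibits the polyamine enzyme ornithine decarboxylase, and live cells were sorted at 68 h. The donors were 4 animals labelled WT and 3 labelled JMJD3 fl/fl CD4cre (KO), in which Cre under the Cd4 promoter deletes the histone demethylase gene Kdm6b in T cells. By the replicate numbers in the sample titles, each animal gave 4 libraries, so 28 libraries fell into 8 groups of 4 WT or 3 KO. The sources used here do not state whether the WT animals carried a floxed allele or Cre, and animal ages were not used here.

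In the integrated stress response, kinases that sense amino acid shortage, misfolded protein, double-stranded RNA or lack of heme phosphorylate the initiation factor eIF2. General translation then falls while the mRNA of the transcription factor ATF4 is translated more, so that much of the control of ATF4 lies in translation and is not seen in its mRNA level. ATF4 pairs with C/EBP family proteins on a composite element in the promoters of amino acid and stress genes, and in activated T cells it is known for the supply of amino acids during growth.

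The RefSeq promoter table (build GRCm38.p6, 250 bases before to 50 after the start) held all 10 genes. The core of the C/EBP-ATF response element, TGATGNAA searched on both strands, lay in the windows of 4 of them, Atf3, Chac1, Trib3 and Asns, against 4.51% of 27025 genes in that table and 3.97% of 32851 windows. The palindromic CRE, TGACGTCA, was in the window of 0 of 10, against 2.03% of genes. These 4 windows are shown because the motif is the element that ATF4 and its partners are known to bind, and because these genes went different ways under DFMO. Capitals mark the match, which lies on the opposite strand in Atf3, Chac1 and Trib3 and on the gene's own strand in Asns. A match is a description of the letters and does not show binding. The windows were chr1:191183284-191183583 (minus strand) for Atf3, chr2:119350992-119351291 (plus) for Chac1, chr2:152344011-152344310 (minus) for Trib3 and chr6:7693160-7693459 (minus) for Asns.
Atf3: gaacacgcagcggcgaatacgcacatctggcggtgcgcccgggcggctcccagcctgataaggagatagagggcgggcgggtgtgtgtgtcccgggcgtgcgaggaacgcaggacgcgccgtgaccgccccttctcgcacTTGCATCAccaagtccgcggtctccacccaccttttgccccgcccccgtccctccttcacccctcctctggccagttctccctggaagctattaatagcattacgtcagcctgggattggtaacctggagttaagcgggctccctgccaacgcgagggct
Chac1: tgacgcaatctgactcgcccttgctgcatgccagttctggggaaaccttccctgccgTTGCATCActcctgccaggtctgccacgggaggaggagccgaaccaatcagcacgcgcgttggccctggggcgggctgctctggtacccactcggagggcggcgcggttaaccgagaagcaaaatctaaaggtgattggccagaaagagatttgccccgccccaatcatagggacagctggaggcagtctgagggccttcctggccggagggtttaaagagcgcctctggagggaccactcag
Trib3: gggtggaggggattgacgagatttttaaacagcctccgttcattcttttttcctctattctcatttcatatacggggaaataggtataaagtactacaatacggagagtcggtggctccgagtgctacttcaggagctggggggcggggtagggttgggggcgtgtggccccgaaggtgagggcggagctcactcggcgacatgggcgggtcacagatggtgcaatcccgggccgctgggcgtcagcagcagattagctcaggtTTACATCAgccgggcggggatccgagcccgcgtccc
Asns: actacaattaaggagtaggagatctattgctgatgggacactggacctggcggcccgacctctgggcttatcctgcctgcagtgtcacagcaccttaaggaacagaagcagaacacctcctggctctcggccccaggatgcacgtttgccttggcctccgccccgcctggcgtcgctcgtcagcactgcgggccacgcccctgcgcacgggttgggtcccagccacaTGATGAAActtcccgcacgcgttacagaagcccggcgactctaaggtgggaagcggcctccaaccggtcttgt
Counted from the start site, the match began at -110 in Atf3, -193 in Chac1, 15 in Trib3 and -23 in Asns.

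Library totals ran from 2226914 to 4759290 estimated counts, and each library's median correlation with its own group was 0.966 to 0.981. Depth differed between groups. Totals were 2226914 to 4143568 in Th17n ctrl KO and 4561014 to 4759290 in Th17n ctrl WT. They were 2312481 to 2911716 in iTreg ctrl KO, 2792847 to 4753768 in iTreg ctrl WT and 3406287 to 4528484 in iTreg DFMO KO. Kdm6b was lower in KO by 0.44 ± 0.20 (SE) on the log2 scale in Th17n ctrl and by 0.48 ± 0.20 in iTreg ctrl (adjusted p = 0.285 and 0.188), and fell by 0.95 and 1.01 in the Th17n and iTreg DFMO cultures (adjusted p = 0.0076 and 0.00251). These values are for the whole gene, so the deleted part was not resolved. Cd3e (205 to 404 CPM) and Cd4 (254 to 708 CPM) were found in every library. The summed myeloid markers were 15.1 to 17.9 CPM in Th17n ctrl KO, 8.01 to 9.25 in Th17n ctrl WT and 2.12 to 3.9 in Th17n DFMO WT, and the summed B cell markers reached 21.4 CPM in iTreg DFMO KO. Their part in the results below was not tested. In such bulk samples a change in the mix of cells and a change of RNA per cell cannot be told apart.

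Per length, averaged over the 28 libraries, the most abundant of the 10 transcripts was Atf4 with 218 TPM. Asns followed with 122 TPM and Ddit3 with 121 TPM. Ddit4 (33.3 TPM), Trib3 (28.1), Chac1 (15.6), Atf3 (13.5) and Sesn2 (12.6) were lower, and Atf5 (1.13) and Cebpb (0.92) lay near the lower end of detection. The filter on low counts asked for about 2.66 CPM, which 8 of the genes reached in all 28 libraries. Atf5 reached it in 6 libraries, all ctrl, and Cebpb in 4 libraries, all with DFMO, so both could only pass through the treatment in which they were high.

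**Figure D1:**
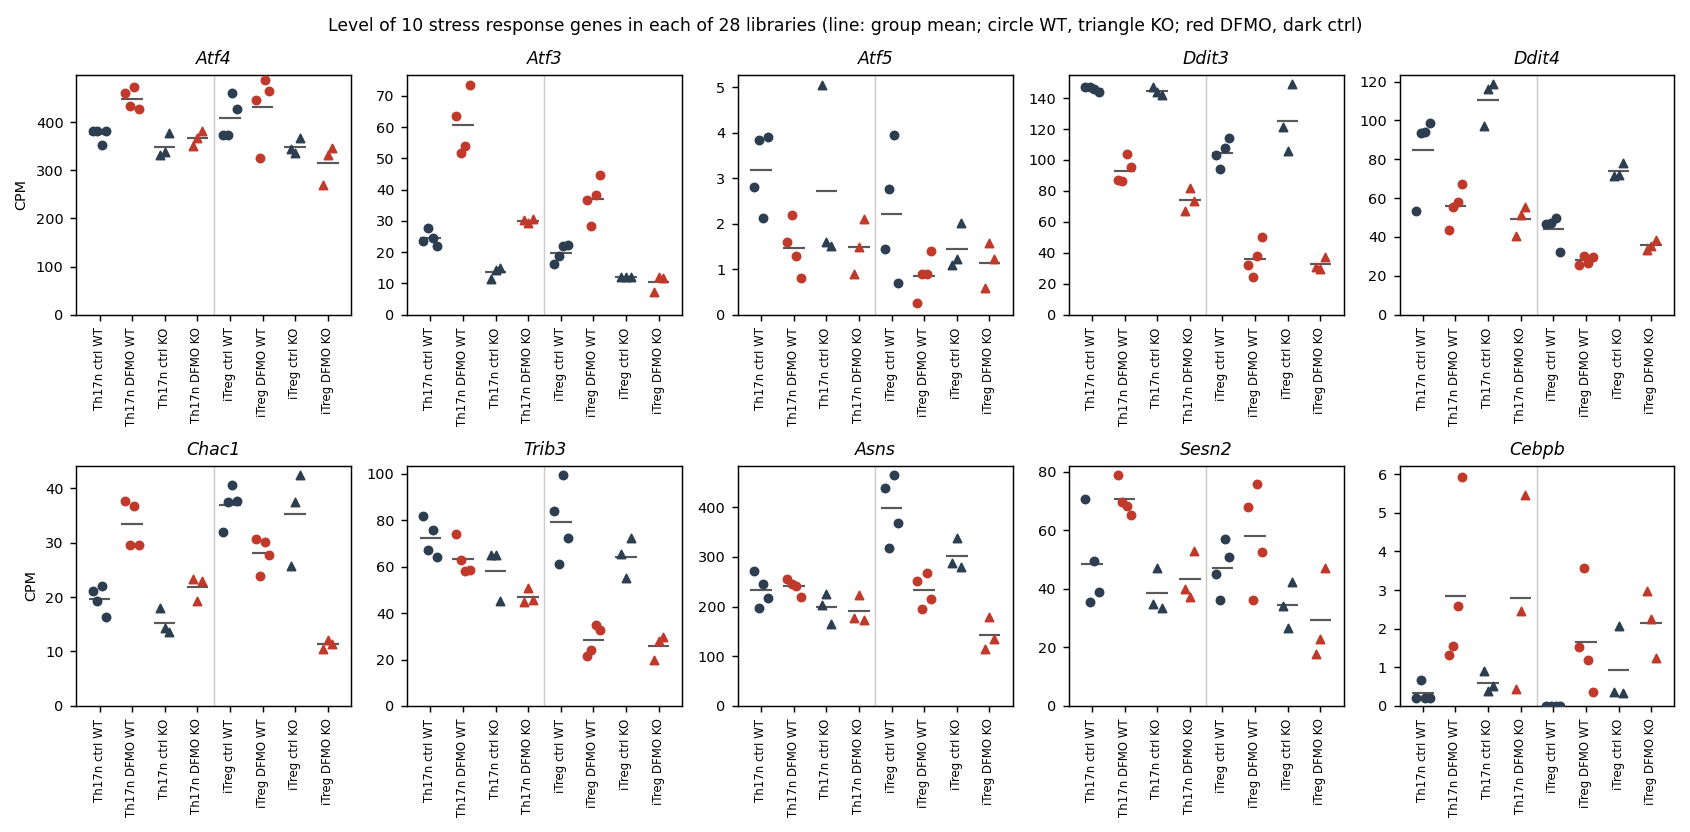
CPM (counts scaled to library size, axes from 0) of the 10 genes in each of the 28 libraries, with 1 point per library and a line at each group mean; circles are WT, triangles KO, red DFMO and dark ctrl. Atf3 is highest in Th17n DFMO WT (51.8 to 73.5 CPM), and Ddit3 is lowest in the iTreg DFMO groups (24.3 to 50.1 CPM).

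Under DFMO the genes split by direction and by culture. Atf3 rose in Th17n WT, Th17n KO and iTreg WT, and Chac1 rose in Th17n cells. Ddit3 and Ddit4 fell in all 4 cultures, and Trib3, Asns and Chac1 fell in iTreg cells. Counts are given for the 8 genes above the filter in all libraries, since the test could find Atf5 and Cebpb in 1 direction only. In Th17n WT 6 of the 8 were called by edgeR's quasi-likelihood test at a Benjamini-Hochberg adjusted p under 0.05, 4 higher and 2 lower, beside 51.8% of all genes (23.4% higher, 28.4% lower). In Th17n KO 4 were called, 2 higher and 2 lower, beside 45.6% (21.1% higher, 24.6% lower). In iTreg WT 6 were called, 1 higher and 5 lower, beside 47.5% (23.1% higher, 24.3% lower), and in iTreg KO 5 were called, all lower, beside 38.1% (19% higher, 19.1% lower). The shares are over 8 genes only, and their difference from that background was not tested. The median log2 fold change of the 8 was 0.15, 0.01, -0.53 and -1.06 in that order, beside -0.07, -0.06, -0.05 and -0.03 over all genes. On log2(TPM + 1) the split of all called genes in iTreg WT was 1314 higher and 3283 lower (2540 and 2674 on counts), with a median of -0.19, and in iTreg KO 1345 and 2114 (2083 and 2098 on counts). The DFMO and ctrl groups did not overlap for 4, 4, 6 and 5 of the 8 genes, beside 47.1%, 56%, 36.5% and 48.3% of all genes.

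**Figure D2:**
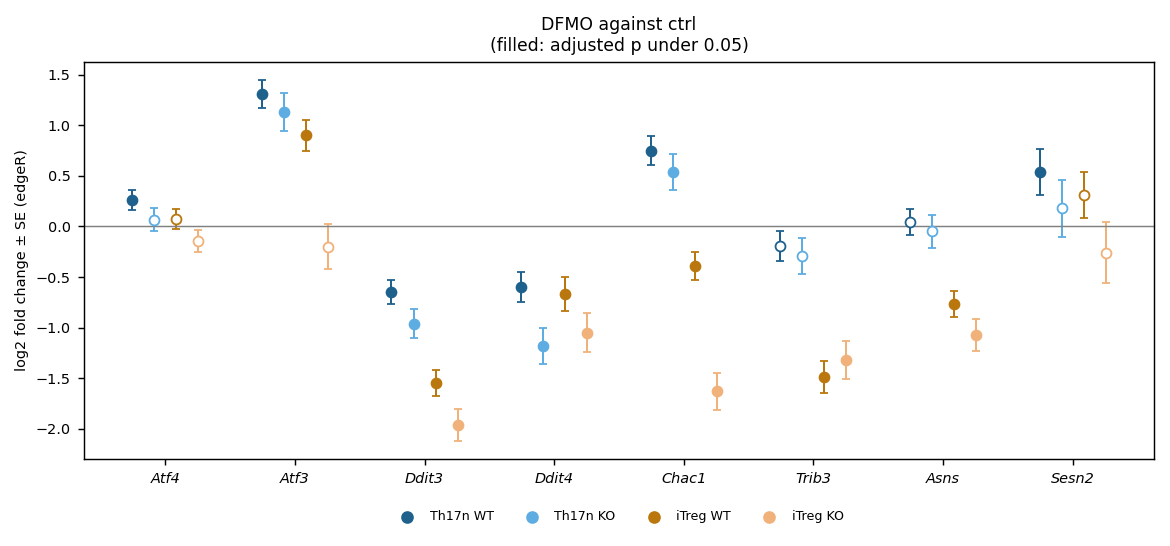
Log2 fold change ± SE of DFMO against ctrl (edgeR) for the 8 genes measured above the filter in all libraries, in 4 cultures; filled points have an adjusted p under 0.05. Chac1 lies above 0 in Th17n and below 0 in iTreg, and Ddit3 lies below 0 in all 4, from -0.65 to -1.96.

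Atf4 (chromosome 15, 80255184 to 80257541, plus strand, GRCm38), which encodes the transcription factor at the centre of the response, changed little in mRNA. In Th17n WT it measured 382, 382, 353 and 381 CPM in ctrl and 461, 433, 472 and 427 CPM with DFMO. Every DFMO library was above every ctrl library, a rise of 0.26 ± 0.10 on the log2 scale (adjusted p = 0.0266, higher in 4 of 4 animals). It missed the threshold when replicate 3 of Th17n ctrl WT or of Th17n DFMO WT was left out, and the adjusted p ran from 0.00159 to 0.0734 over 15 alternatives. In Th17n KO the levels were 331, 338 and 377 CPM in ctrl and 351, 366 and 382 CPM with DFMO, which overlapped. The log2 difference was 0.07 ± 0.11 there (adjusted p = 0.651). In iTreg WT the difference was 0.08 ± 0.10 (adjusted p = 0.543) and in iTreg KO -0.14 ± 0.11 (adjusted p = 0.352). Across the 8 groups the mean ran from 448 CPM in Th17n DFMO WT to 316 CPM in iTreg DFMO KO, and every neighbour in that order overlapped the next.

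Atf3 (chromosome 1, 191170296 to 191218039, minus strand), a stress-induced factor of the same bZIP family that can repress as well as activate its targets, had the largest rise among the 8 well-measured genes in Th17n cells. In Th17n WT it measured 23.4, 27.8, 24.5 and 21.9 CPM in ctrl and 63.6, 51.8, 53.8 and 73.5 CPM with DFMO. The lowest DFMO library was well above the highest ctrl library, and the log2 rise was 1.31 ± 0.14 (adjusted p = 7.03e-09), a 2.49-fold change. In Th17n KO it rose from 11.5, 14.3 and 14.9 CPM to 30.4, 29.2 and 30.7 CPM, by 1.13 ± 0.19 (adjusted p = 1.47e-05). The KO libraries thus started lower, and their DFMO level lay just above that of untreated WT cells. In iTreg WT the levels went from 16.2, 18.8, 22.1 and 22.3 CPM to 36.8, 28.2, 38.2 and 44.8 CPM, by 0.90 ± 0.15 (adjusted p = 1.47e-05). In iTreg KO they were 11.9, 11.9 and 12.0 CPM in ctrl and 7.13, 12.2 and 11.7 CPM with DFMO, which overlapped, with a difference of -0.20 ± 0.22 (adjusted p = 0.517). In the order of means, Th17n DFMO WT (60.7 CPM) stood clear of iTreg DFMO WT (37.0 CPM), while iTreg DFMO WT overlapped Th17n DFMO KO (30.1 CPM). Th17n ctrl WT (24.4 CPM) overlapped iTreg ctrl WT (19.8 CPM), and the other 3 KO groups (13.6, 12.0 and 10.3 CPM) each overlapped the next.

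Ddit3 (chromosome 10, 127290774 to 127296288, plus strand) encodes CHOP, a factor linked to cell death in prolonged stress, and it fell under DFMO in every culture. In Th17n WT the ctrl libraries lay close together at 147, 147, 146 and 144 CPM, and the DFMO libraries at 87.2, 86.1, 104 and 95.3 CPM. None overlapped, and the fall was 0.65 ± 0.12 on the log2 scale (log2 fold change -0.65, adjusted p = 4.8e-05). In Th17n KO the levels were 147, 144 and 142 CPM against 66.8, 81.9 and 73.3 CPM with DFMO (-0.96 ± 0.14, adjusted p = 2.62e-06). The falls in iTreg cells were deeper. Ddit3 went from 103, 94.1, 108 and 114 CPM to 32.2, 24.3, 37.6 and 50.1 CPM in WT (-1.55 ± 0.13, adjusted p = 2.25e-10). In KO it went from 121, 106 and 149 CPM to 30.6, 29.6 and 37.2 CPM (-1.96 ± 0.16, adjusted p = 1.52e-10), a 3.88-fold fall. In the order of means, the 4 ctrl groups (146 to 105 CPM) overlapped in turn, iTreg ctrl WT overlapped Th17n DFMO WT (93.1 CPM), and Th17n DFMO KO (74.0 CPM) stood clear of both neighbours. GENCODE lists a second Ddit3 entry within the gene, and Mars, a tRNA synthetase gene on the opposite strand, overlaps it. The sources used here do not state whether counting was by strand, so shared reads cannot be told apart. Mars rose in Th17n WT (0.26 ± 0.08, adjusted p = 0.00932) and Th17n KO (0.27 ± 0.10, adjusted p = 0.0199). In iTreg cells it measured -0.11 ± 0.08 in WT (adjusted p = 0.272) and -0.08 ± 0.10 in KO (adjusted p = 0.572), lower in 4 of 4 and 3 of 3 animals.

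Ddit4 (chromosome 10, 59949669 to 59951834, minus strand) encodes REDD1, an inhibitor of mTORC1 that answers to hypoxia, glucocorticoids and ATF4. Th17n WT libraries measured 53.2, 93.4, 94.2 and 98.5 CPM in ctrl and 43.7, 55.5, 58.0 and 67.3 CPM with DFMO. The groups overlapped through the low ctrl replicate 1, and the log2 fold change was -0.60 ± 0.15 (adjusted p = 0.00142, lower in 4 of 4 animals). In Th17n KO 97.2, 116 and 119 CPM in ctrl stood above 40.7, 51.5 and 55.4 CPM (-1.18 ± 0.18, adjusted p = 2.66e-06). No library of one KO group reached the other. In iTreg WT the levels were 46.7, 47.2, 50.0 and 32.4 CPM against 25.6, 30, 26.5 and 29.5 CPM (-0.67 ± 0.17, adjusted p = 0.00153). In iTreg KO they were 71.3, 72.0 and 78.3 CPM against 33.3, 35.4 and 38.7 CPM (-1.05 ± 0.19, adjusted p = 5.38e-05). The DFMO libraries were below all ctrl libraries in both iTreg genotypes. The highest mean was 111 CPM in Th17n ctrl KO, which overlapped Th17n ctrl WT (84.8 CPM), and the lowest 27.9 CPM in iTreg DFMO WT, which stood clear of iTreg DFMO KO (35.8 CPM).

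Chac1 (chromosome 2, 119351229 to 119354381, plus strand) encodes an enzyme that degrades glutathione and is a target of ATF4, and it changed in opposite directions in the cultures. In Th17n WT it measured 21.2, 19.2, 22.1 and 16.4 CPM in ctrl and 37.6, 29.5, 36.7 and 29.6 CPM with DFMO (0.75 ± 0.14, adjusted p = 5.33e-05). In iTreg WT it measured 32.0, 37.4, 40.5 and 37.6 CPM in ctrl and 30.7, 23.8, 30.1 and 27.8 CPM with DFMO. The groups overlapped in neither differentiation, and the iTreg WT fall was smaller (-0.39 ± 0.14, adjusted p = 0.0236). That call was lost without a filter on low counts and without iTreg ctrl WT replicate 2 or 3 or iTreg DFMO WT replicate 2 (adjusted p from 0.00227 to 0.0831 over 15 alternatives). In Th17n KO Chac1 rose from 17.9, 14.3 and 13.6 CPM to 23.4, 19.3 and 22.9 CPM (0.54 ± 0.18, adjusted p = 0.0173), which missed the threshold when replicate 2 or 3 of the ctrl or replicate 3 of the DFMO libraries was left out (up to 0.0972). In iTreg KO it fell from 25.7, 37.4 and 42.5 CPM to 10.4, 12.2 and 11.4 CPM (-1.63 ± 0.18, adjusted p = 4.84e-08), a 3.1-fold change. The order of means ran from iTreg ctrl WT (36.9 CPM) through iTreg ctrl KO (35.2 CPM) and Th17n DFMO WT (33.4 CPM), which overlapped in turn, down to iTreg DFMO KO (11.3 CPM), which stood clear of the rest.

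Trib3 (chromosome 2, 152337422 to 152344032, minus strand) encodes a pseudokinase that binds ATF4 and CHOP and dampens the response. In iTreg WT it fell from 84.2, 61.3, 99.5 and 72.5 CPM to 21.7, 24.3, 34.9 and 32.7 CPM (-1.49 ± 0.16, adjusted p = 1.38e-08). In iTreg KO it fell from 65.5, 55.1 and 72.6 CPM to 19.6, 28 and 29.5 CPM (-1.32 ± 0.19, adjusted p = 3.09e-06). No iTreg library with DFMO reached a ctrl level. In Th17n WT the levels were 81.7, 67.2, 76.0 and 64.1 CPM in ctrl and 73.9, 63.0, 58.0 and 58.7 CPM with DFMO, which overlapped (-0.19 ± 0.15, adjusted p = 0.300). In Th17n KO they were 65.1, 64.9 and 45.1 CPM against 45.0, 50.7 and 45.7 CPM (-0.29 ± 0.18, adjusted p = 0.197). Both iTreg DFMO groups (28.4 and 25.7 CPM on average) stood below the other 6, whose means ran from 79.4 to 47.1 CPM and overlapped in turn.

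Asns (chromosome 6, 7675169 to 7693254, minus strand), asparagine synthetase and a textbook target of ATF4, had the same shape. In iTreg WT it fell from 438, 318, 466 and 369 CPM to 252, 196, 267 and 216 CPM (-0.77 ± 0.13, adjusted p = 2.04e-05). In iTreg KO it fell from 288, 338 and 279 CPM to 115, 179 and 135 CPM (-1.07 ± 0.16, adjusted p = 3.66e-06). The ctrl libraries of iTreg cells were above all DFMO libraries of their genotype. In Th17n WT the levels were 271, 198, 246 and 217 CPM in ctrl and 255, 246, 242 and 220 CPM with DFMO (0.05 ± 0.13, adjusted p = 0.787). In Th17n KO they were 204, 226 and 166 CPM against 177, 224 and 174 CPM (-0.05 ± 0.16, adjusted p = 0.832). The 95% intervals of these Th17n differences ran from -0.22 to 0.32 in WT and from -0.37 to 0.27 in KO. The order of means began with iTreg ctrl WT (398 CPM), which overlapped iTreg ctrl KO (302 CPM); the latter stood clear of Th17n DFMO WT (241 CPM), and from there each of the 6 groups overlapped the next, down to 143 CPM in iTreg DFMO KO.

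Sesn2 (chromosome 4, 132492032 to 132510501, minus strand), a sestrin that senses leucine and restrains mTORC1, varied more between libraries. Its Th17n WT levels were 70.7, 35.4, 49.4 and 39.0 CPM in ctrl and 79.0, 69.6, 68.4 and 65.4 CPM with DFMO. Ctrl replicate 1 lay within the DFMO range, and the rise of 0.54 ± 0.23 (adjusted p = 0.0477) was lost with DESeq2 and on leaving out any library of the comparison except Th17n ctrl WT replicate 1 (adjusted p from 0.000374 to 0.157 over 15 alternatives). In Th17n KO the levels were 34.8, 47.0 and 33.5 CPM against 40.1, 37.1 and 52.8 CPM (0.18 ± 0.28, adjusted p = 0.629). In iTreg WT they were 45.0, 36.2, 57.1 and 50.9 CPM against 68.0, 36.2, 75.8 and 52.5 CPM (0.31 ± 0.23, adjusted p = 0.287). Both pairs overlapped. In iTreg KO the levels were 34.0, 26.7 and 42.5 CPM against 17.8, 23.0 and 47.0 CPM (-0.26 ± 0.30, adjusted p = 0.539). Group means ran from 70.6 CPM in Th17n DFMO WT to 29.3 CPM in iTreg DFMO KO, each overlapping the next.

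Cebpb and Atf5 rested on few estimated counts and are given as sums over each group's libraries. The exact 95% intervals cover counting error only and leave out the spread between animals. No test of DFMO is given for Cebpb and Atf5, because each passed the filter only through the treatment in which it was high. Whether an interval holds 1 is therefore not read as a result. Cebpb (chromosome 2, 167688915 to 167690418, plus strand) encodes C/EBP beta, a partner of ATF4. In Th17n WT it had 1, 3, 1 and 1 counts in ctrl and 5, 7, 10 and 22 with DFMO, a depth-adjusted ratio of 8.49 (3.6 to 24.4). In iTreg WT it had 0 counts in every ctrl library and 6, 12, 4 and 1 with DFMO, a ratio of at least 6.76 by the exact lower limit. In Th17n KO 2, 1 and 2 counts stood beside 2, 10 and 26, a ratio of 4.97 (1.95 to 16.2). The ranges of those KO libraries met at 2 counts. In iTreg KO 1, 5 and 1 counts stood beside 10, 10 and 4, a ratio of 2.54 (1.06 to 6.98). Tmem189 overlaps Cebpb on the opposite strand, and shared reads cannot be told apart.

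Atf5 (chromosome 7, 44812256 to 44816658, minus strand) encodes a bZIP factor whose translation is controlled like that of ATF4. Th17n WT libraries had 13, 17, 10 and 18 counts in ctrl and 6, 10, 5 and 3 with DFMO, a ratio of 0.479 (0.285 to 0.783). In iTreg WT it had 6, 14, 15 and 2 counts against 1, 3, 3 and 4, a ratio of 0.35 (0.161 to 0.7). The iTreg WT ranges overlapped. The KO ratios were 0.623 (0.321 to 1.21) in Th17n and 0.802 (0.337 to 1.92) in iTreg. Nup62 and Il4i1 overlap Atf5 on the opposite strand, and shared reads cannot be told apart.

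The difference between the DFMO responses of Th17n and iTreg cells was tested as an interaction. Counts are again over the 8 genes above the filter in all libraries. In WT 4 of the 8 were called, beside 8.73% of all genes (3.39% higher, 5.34% lower). In KO 5 of the 8 were called, beside 5.9% (2.2% higher, 3.7% lower). In WT the Th17n response was higher than the iTreg response for Trib3 by 1.30, for Chac1 by 1.14, for Ddit3 by 0.90 and for Asns by 0.82 on the log2 scale (adjusted p = 0.000255, 0.000353, 0.00162 and 0.00521). In KO it was higher for Chac1 by 2.17, Atf3 by 1.33, Trib3 by 1.03, Asns by 1.02 and Ddit3 by 1.00 (adjusted p = 3.48e-06, 0.00456, 0.0158, 0.00382 and 0.00345). For Chac1 the responses had opposite signs, for Trib3 and Asns the called change was in iTreg, and for Ddit3 both cultures fell to different depths. The KO call of Trib3 was lost without Th17n ctrl KO replicate 3 or iTreg DFMO KO replicate 1 (up to 0.065), and that of Ddit3 on TPM (up to 0.0792). For Ddit4 the difference was 0.08 in WT and -0.13 in KO, with adjusted p = 0.894 and 0.849. On TPM the median interaction of all genes shifted to 0.19 in WT, with 935 genes higher and 258 lower (372 and 587 on counts), and to 0.10 in KO, with 418 and 256 (242 and 406 on counts). All 4 WT calls were also made on TPM, and Atf4, whose difference was 0.18 on counts (adjusted p = 0.484), was called there (0.46, adjusted p = 0.01 on log2(TPM + 1) and from 0.01 to 0.783 over 23 alternatives).

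Between the genotypes as labelled, Atf3 was lower in KO in all 4 cultures. In Th17n ctrl 1 of the 10 genes was called, beside 3.04% of all genes (2.29% higher, 0.746% lower), in Th17n DFMO 2, beside 1.02% (0.646% higher, 0.373% lower), in iTreg ctrl 2, beside 5.3% (3.17% higher, 2.13% lower), and in iTreg DFMO 5, beside 4.14% (1.91% higher, 2.23% lower). Groups did not overlap for 1, 6, 4 and 4 of the genes, beside 16.1%, 10.7%, 15.5% and 11.8%. The median log2 difference of the 10 was -0.27, -0.33, -0.26 and -0.30, beside -0.01, 0.00, -0.01 and 0.00 over all genes. By the sample titles the ctrl and DFMO libraries came from the same animals, so the 4 comparisons of genotype are not independent. On log2(TPM + 1) the split of all called genes was 157 higher and 95 lower in Th17n ctrl (252 and 82 on counts), 206 and 227 in iTreg ctrl (348 and 234), and 236 and 132 in iTreg DFMO (210 and 245). On log2(TPM + 0.1) it was 18 and 18 in Th17n DFMO (71 and 41 on counts).

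**Figure D3:**
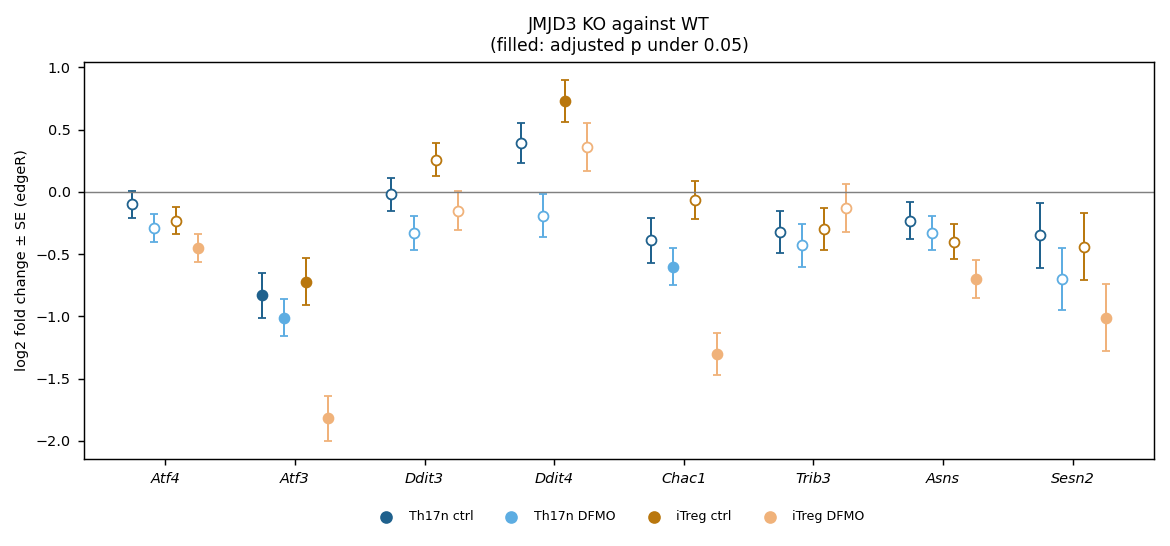
Log2 fold change ± SE of KO against WT (edgeR) for the 8 genes measured above the filter in all libraries, in 4 cultures; filled points have an adjusted p under 0.05. Atf3 lies below 0 in all 4 cultures, from -0.72 to -1.82, and Chac1 is lowest in iTreg DFMO (-1.30).

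Atf3, the stress-induced bZIP factor, was separated by genotype library by library. In Th17n ctrl the highest KO library (14.9 CPM) was below the lowest WT library (21.9 CPM), with a log2 fold change of -0.83 ± 0.18 (adjusted p = 0.00876). In Th17n DFMO the KO libraries (29.2 to 30.7 CPM) were below WT (51.8 to 73.5 CPM), by -1.01 ± 0.15 (adjusted p = 0.000381). In iTreg ctrl the KO libraries (11.9 to 12.0 CPM) were below WT (16.2 to 22.3 CPM), by -0.72 ± 0.19 (adjusted p = 0.0261). No KO library reached WT in any of these cultures. In iTreg DFMO the KO libraries (7.13 to 12.2 CPM) were far below WT (28.2 to 44.8 CPM), by -1.82 ± 0.18 (adjusted p = 1.41e-07), a 3.53-fold difference. The Th17n ctrl call was lost without Th17n ctrl KO replicate 1 (0.00231 to 0.0677 over 14 alternatives). The iTreg ctrl call was lost on TPM, in a fit of the compared groups alone, with animal as a random block in limma-voom (0.0959), and without iTreg ctrl WT replicate 3 or 4 or any iTreg ctrl KO library (0.0198 to 0.0959).

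Chac1, the glutathione-degrading enzyme, was lower in KO in both DFMO cultures. In iTreg DFMO the KO libraries (10.4 to 12.2 CPM) lay below WT (23.8 to 30.7 CPM), by -1.30 ± 0.17 (adjusted p = 1.72e-05). In Th17n DFMO they lay at 19.3 to 23.4 CPM against 29.5 to 37.6 CPM (-0.60 ± 0.15, adjusted p = 0.0479). The ranges overlapped in neither. The Th17n call was lost without the filter, on TPM, in a fit of the compared groups alone, and on leaving out any library except Th17n DFMO WT replicate 2 (0.0317 to 0.256 over 14 alternatives). In iTreg ctrl the difference was -0.06 ± 0.15 (adjusted p = 0.886).

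Other genes called by genotype were mostly called in iTreg DFMO. Asns was lower there in KO by -0.70 ± 0.15 (adjusted p = 0.00431), Atf4 by -0.45 ± 0.11 (adjusted p = 0.0119) and Sesn2 by -1.01 ± 0.27 (adjusted p = 0.0258). Asns did not overlap between genotypes (115 to 179 against 196 to 267 CPM), while Atf4 (270 to 346 against 325 to 488 CPM) and Sesn2 (17.8 to 47.0 against 36.2 to 75.8 CPM) did. The Asns call was lost without iTreg DFMO KO replicate 1 (1.71e-06 to 0.0604 over 14 alternatives). That of Atf4 was lost without that library, without iTreg DFMO WT replicate 3 and in a fit of the compared groups alone (0.000259 to 0.171). That of Sesn2 was lost without iTreg DFMO WT replicate 1 or 3 or iTreg DFMO KO replicate 1 or 2, in the fit of the compared groups and on log2(TPM + 1) (3.6e-06 to 0.197). Ddit4, the mTORC1 inhibitor, was the 1 gene called higher in KO. In iTreg ctrl it measured 71.3 to 78.3 CPM in KO and 32.4 to 50.0 CPM in WT, which did not overlap (0.73 ± 0.17, adjusted p = 0.00831). Trib3 and Ddit3 were called between genotypes in none of the 4 cultures, with log2 differences from -0.43 to -0.13 and from -0.33 to 0.26. In Th17n DFMO Atf4 (351 to 382 CPM in KO, 427 to 472 CPM in WT) and Sesn2 (37.1 to 52.8 and 65.4 to 79.0 CPM) did not overlap. Trib3 (45.0 to 50.7 and 58.0 to 73.9 CPM) and Ddit3 (66.8 to 81.9 and 86.1 to 104 CPM) did not overlap there either. None of them was called in Th17n DFMO in the fit of all groups. Sesn2 was called there without the filter (-0.70, adjusted p = 0.00353) and in the fit of the compared groups (0.0144; 0.00353 to 0.635 over 14 alternatives).

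Whether the DFMO response itself depended on genotype was tested as a second interaction. Counts are over the 8 genes above the filter in all libraries. In Th17n 0 of the 8 was called by edgeR or by DESeq2, beside 0.328% of all genes (0.0364% higher, 0.291% lower). Of the 8, 1 gene, Ddit4, had an unadjusted p under 0.05 in edgeR (0.018, interaction -0.58 ± 0.23). In iTreg 1 gene was called, Chac1, beside 0.246% (0.0273% higher, 0.218% lower), which fell further in KO by 1.24 ± 0.23 on the log2 scale (interaction -1.24, adjusted p = 0.0086). That call was lost on TPM, in a fit of the compared groups alone and without iTreg ctrl KO replicate 3 (0.000491 to 0.0789 over 21 alternatives). Atf3, which rose in iTreg WT and not measurably in iTreg KO, had an interaction of -1.10 ± 0.27 that missed the threshold (adjusted p = 0.0726). It was called with DESeq2, without the filter and without iTreg DFMO WT replicate 2 (0.0174 to 0.295 over 21 alternatives). The split of all called genes in this iTreg test was 3 higher and 24 lower on counts and 11 and 8 on log2(TPM + 1).

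Without treatment, Th17n and iTreg WT cells differed in 4 of the 10 genes, beside 40% of all genes (19.9% higher, 20% lower), and KO cells in 3, beside 35.3% (17.8% higher, 17.6% lower). Ddit4 was higher in Th17n by 0.93 in WT and 0.59 in KO (adjusted p = 1.18e-05 and 0.00963), while Chac1 was lower by -0.90 and -1.22 (6.23e-06 and 3.85e-06) and Asns by -0.77 and -0.61 (2.17e-05 and 0.003). Ddit3 was higher in Th17n WT by 0.48 (adjusted p = 0.00189). With DFMO, 4 genes were called in WT, beside 29.5% (13.1% higher, 16.3% lower), and 4 in KO, beside 20.7% (9.89% higher, 10.8% lower), all higher in Th17n. Atf3 (0.71 and 1.53), Ddit3 (1.38 and 1.19) and Trib3 (1.17 and 0.87) were called in both genotypes, Ddit4 in WT (1.01) and Chac1 in KO (0.95). On log2(TPM + 1) Chac1 was also called in WT (0.45, adjusted p = 0.0262; 0.0254 to 0.423 over 15 alternatives), and Atf4 in WT (0.30, adjusted p = 0.00715; 0.00715 to 0.869) and KO (0.35, adjusted p = 0.00918; 0.00918 to 0.6). In KO with DFMO, Asns (0.42, adjusted p = 0.0576), Ddit4 (0.46, 0.0799) and Sesn2 (0.58, 0.152) were called with animal as a block (0.00152, 0.04 and 0.0477). Over 13 alternatives Asns was called in 9 (0.00152 to 0.283), Ddit4 in 6 (0.0122 to 0.25) and Sesn2 in 3 (0.00595 to 0.51). On log2(TPM + 1) the DFMO splits of all called genes were 2023 higher and 675 lower in WT, with a median of 0.15 (1442 and 1796 on counts), and 1154 and 573 in KO (1086 and 1188). These comparisons use the same libraries as those of DFMO.

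Genes around the response were read from lists by role, whose counts stand against 23.4% of all genes called higher and 28.4% lower in Th17n WT, and 23.1% and 24.3% in iTreg WT. Of 4 eIF2 kinases, Eif2ak4 (GCN2, the sensor of uncharged tRNA) fell under DFMO in all 4 cultures, from -0.58 to -1.08, and Eif2ak2 (PKR) fell in 3, by -0.94 in Th17n WT. Eif2ak1, the heme-regulated kinase, rose in Th17n WT by 0.36 ± 0.11, and Eif2ak3 (PERK) measured -0.13 ± 0.24 there. Of 8 eIF2 and eIF2B subunits, 5 rose in Th17n WT and 0 fell, beside 23.4% and 28.4% of all genes, with Eif2b5 up by 1.01 and Eif2b1 by 0.67. In the phosphatase that reverses eIF2 phosphorylation, the constitutive regulatory subunit gene Ppp1r15b rose by 0.74 ± 0.13 in Th17n WT and was called higher in all 4 cultures. The stress-induced Ppp1r15a (GADD34) measured -0.25 ± 0.18 in Th17n WT and was called lower in iTreg KO (-0.69 ± 0.23, adjusted p = 0.0182).

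The aminoacyl-tRNA synthetase genes known as ATF4 targets, which charge tRNAs with amino acids, were called more often higher in Th17n WT and more often lower in iTreg WT. In Th17n WT 6 of 12 rose and 1 fell (median log2 fold change 0.20), beside 23.4% and 28.4% of all genes. In iTreg WT 0 rose and 8 fell (median -0.29), beside 23.1% and 24.3%. The medians of all genes were -0.07 and -0.05. Cars measured 0.14 ± 0.10 in Th17n WT and fell in iTreg WT by 0.55 ± 0.10 (log2 fold change -0.55). Lars rose in Th17n WT by 0.33 ± 0.13 and fell in iTreg WT (-0.45 ± 0.13). Aars rose in Th17n WT by 0.40 ± 0.10 and Wars by 0.72 ± 0.10, while Sars fell in both, by -0.45 in Th17n WT and -0.70 in iTreg WT. The interaction with differentiation was called for 9 of the 12 in WT and 5 in KO, all higher in Th17n, with medians of 0.45 and 0.44, beside 3.39% and 2.2% of all genes. In 8 other cytosolic synthetase genes it was called for 0 in WT (median -0.06) and for 1, Dars, in KO (-0.48). Of these 8, 4 rose and 2 fell in Th17n WT (23.4% and 28.4% of all genes), and 4 rose and 1 fell in iTreg WT (23.1% and 24.3%), where Hars was up by 0.60 and Dars down (-0.72). The lists differ in size and were chosen with earlier results of these data known, and the difference between them was not tested. On log2(TPM + 1) 11 of the 12 were called lower in iTreg WT and 8 in the WT interaction. With animal as a block, the 4 calls of a rise in Th17n KO became 6, and the 5 calls of a fall in iTreg KO became 8.

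**Figure D4:**
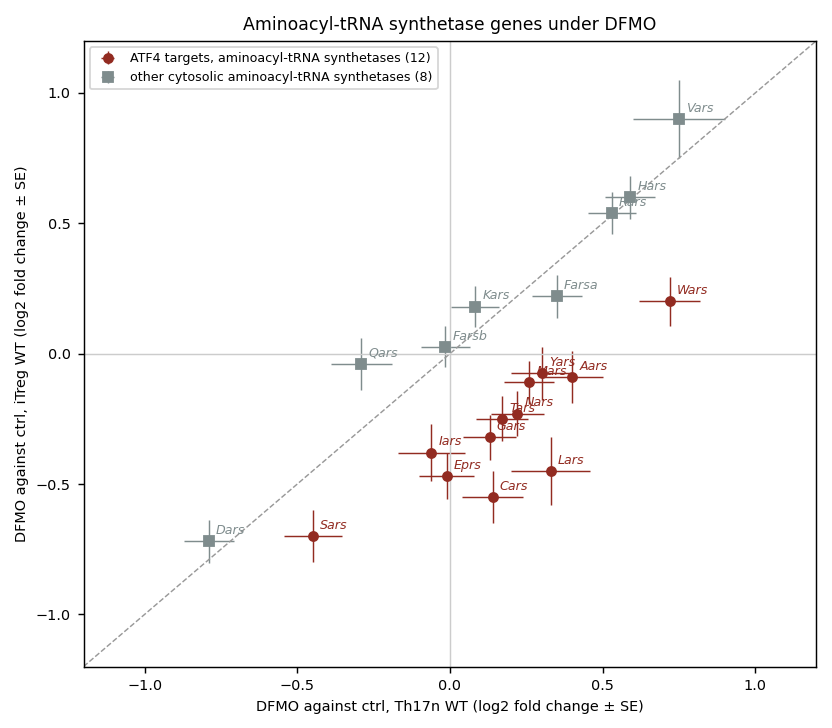
Log2 fold change ± SE of DFMO against ctrl in Th17n WT (horizontal) and iTreg WT (vertical) for 12 synthetase genes known as ATF4 targets (red circles) and 8 other cytosolic synthetase genes (grey squares); the dashed line marks equal change. The red points lie below the line, as for Cars (0.14 and -0.55), and the grey points lie near it, as for Hars (0.59 and 0.60). Both lists were chosen with earlier results of these data known, and Cars was named after its values were seen.

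Of 12 amino acid transporter genes known as ATF4 targets, 8 rose and 0 fell in Th17n WT (median 0.51), beside 23.4% and 28.4% of all genes. In iTreg WT 5 rose and 3 fell (median 0.10), beside 23.1% and 24.3%, with the falls near the background. On log2(TPM + 1) the iTreg WT counts turned to 2 and 4 and the median to -0.13. Slc7a1, a carrier of the polyamine precursor arginine, rose by 0.88 ± 0.11 in Th17n WT and measured 0.16 ± 0.11 in iTreg WT, with an interaction of 0.72 ± 0.16 (adjusted p = 0.00334). Slc43a1 rose in both, by 1.82 and 1.00. Of 13 genes of amino acid synthesis and one-carbon metabolism, 2 rose and 5 fell in Th17n WT (23.4% and 28.4% of all genes), and 0 rose and 6 fell in iTreg WT (23.1% and 24.3%; 10 fell on log2(TPM + 1)). Pycr1, an enzyme of proline synthesis, fell by 1.16 ± 0.16 in Th17n WT (-1.16) and by 1.59 ± 0.17 in iTreg WT (-1.59). Aldh1l2, a mitochondrial folate enzyme, fell by 1.53 and 1.97 (-1.53 and -1.97). In KO against WT of iTreg DFMO, 6 of the 12 transporters, 4 of the 13 synthesis genes and 3 of the 12 synthetases were called lower and 0 higher in each list, beside 2.23% lower and 1.91% higher over all genes. Their medians were -0.38, -0.31 and -0.29, beside 0.00 over all genes.

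Targets of XBP1 and ATF6, the other arms of the unfolded protein response, were called higher more often than lower in both WT cultures. In Th17n WT 11 of 16 rose and 1 fell (median 0.43), beside 23.4% and 28.4% of all genes. In iTreg WT 11 rose and 2 fell (median 0.40), beside 23.1% and 24.3%, and 6 rose and 2 fell on log2(TPM + 1). The chaperone gene Hspa5 rose by 0.75 ± 0.10 and 0.70 ± 0.10, and Dnajb11 by 1.69 and 1.56. Their interaction with differentiation was called for 1 of the 16 in WT and 0 in KO. Among 12 other ATF4 and CHOP targets, 3 rose and 3 fell in Th17n WT, near the background of 23.4% and 28.4%. Herpud1 rose there by 0.60 ± 0.08, while Ero1l, an oxidase of the endoplasmic reticulum known as a CHOP target, fell by 1.5 ± 0.18 (-1.5), and by 1.87 ± 0.19 in iTreg WT (-1.87). Of 7 mTORC1 inhibitors and sestrin relatives, 0 rose and 3 fell in Th17n WT, beside 23.4% and 28.4%. Sesn1 (-1.31 ± 0.15) and Sesn3 (-1.05 ± 0.15) fell where Sesn2 measured 0.54 ± 0.23. Among 17 genes listed under C/EBP and bZIP partners, Cebpz included by name, 4 rose and 2 fell in Th17n WT. Cebpz (0.43 ± 0.12) was 1 of the 4 rises, which stood at the background of 23.4% of all genes. Batf3 was up by 0.81 and Fosl2 down (-0.69). Of 13 polyamine and hypusine genes 8 rose and 5 fell in Th17n WT, beside 23.4% and 28.4%, with spermidine synthase, Srm, up by 3.22 ± 0.17 and Odc1, the target of DFMO, up by 0.65 ± 0.14 in Th17n WT.

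Over the 28 libraries the 10 genes did not vary as a single block. Of 45 pairs, 6 had a Pearson correlation of log2 CPM of at least 0.7, and the coefficients ran from -0.54 to 0.89. Ddit3 ran closest to Trib3 (0.89), Atf4 to Sesn2 (0.84), Ddit3 to Ddit4 (0.82), Chac1 to Asns (0.79) and Atf4 to Atf3 (0.78). Within groups, on deviations from the group means, the same pairs had coefficients of 0.48, 0.64, 0.08, 0.29 and 0.69. The pooled coefficients of Ddit3 with Ddit4 and of Chac1 with Asns thus lay mostly in the group means. The libraries share animals, treatment and depth, so these are descriptions. Among all tested genes with a mean of at least 10 CPM, those most like Chac1 were Aars (0.81), Cars (0.80) and Gars (0.79), and those most like Asns were Gpt2 (0.93), Slc7a3 (0.92) and Cars (0.90). For Atf4 they were Uchl5 (0.86), Map4 (0.84) and Unc13d (0.83), and for Sesn2 Map4 (0.82), Pcgf2 and Uchl5 (0.77 each). Atf3 ran closest to Klf6 (0.94), Herpud1 (0.88) and Txndc17 (0.85), Trib3 to Cyb5r1 (0.95), Unc13a (0.92) and Pigp (0.88), Ddit3 to S100a10, Ckb and Tes (0.95 each), and Ddit4 to Kdm5b, Cisd3 (0.92 each) and Gramd1a (0.91).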

How the data were processed

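RNA from 28 cultures was measured, and the authors deposited an estimated count and a TPM per gene for 20891 genes, quantified by kallisto against GRCm38 per the submitters' processing notes (the version and strand setting are not stated in the sources used here). Among nonzero deposited estimated counts, 49.4% were whole within 0.001. They were rounded and fitted in edgeR 4.0.16 (R 4.3.3): TMM scaling, filterByExpr (10985 genes kept) and 1 quasi-likelihood model of 8 group means without a block, with Benjamini-Hochberg adjustment over all tested genes in each of 16 comparisons and calls at an adjusted p under 0.05. Standard errors came from the quasi-likelihood F. Alternatives were DESeq2 1.42.0, RLE factors, no filter, limma 3.58.1 on log2(TPM + 1) and log2(TPM + 0.1), only the groups compared, animal as a block, and leaving out each library. Libraries with the same genotype and replicate number in their titles were taken as 1 animal. The deviations of 14 DFMO and ctrl pairs of 1 differentiation from their group means correlated by 0.04 to 0.31 (median 0.18). Pairs of 1 animal across differentiations correlated by -0.03 to 0.13.

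The 10 genes and the lists were chosen with earlier results of these data known. All 10 were reported in every comparison, with up to 4 genes per list of smallest adjusted p in DFMO against ctrl in Th17n WT and the 3 genes of highest correlation with each of the 10. Cars and Lars, outside that rule, were named after their values were seen. GENCODE M21 matched 20837 names and gave the positions. Castor1 and Cebpd were not analysed here.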

Additional observations from a re-analysis of the deposited data

Results flagged for a closer look

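Of 40 groups of 4 libraries tested with Dixon's criterion, 3 held a library far from the others, and chance gives about 1 in 20. Atf4 in Th17n ctrl WT replicate 3 was 353 CPM beside 381 to 382 CPM. Ddit4 in Th17n ctrl WT replicate 1 was 53.2 CPM beside 93.4 to 98.5 CPM. Cebpb in Th17n ctrl WT replicate 2 was 0.677 CPM beside 0.213 to 0.216 CPM, which is 3 counts beside 1 in each of the others.

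The DFMO response differed between Th17n and iTreg cells by a test of the interaction (edgeR) in WT for Trib3 (1.30 on the log2 scale), Chac1 (1.14), Ddit3 (0.90) and Asns (0.82). In KO it differed for Chac1 (2.17), Atf3 (1.33), Trib3 (1.03), Asns (1.02) and Ddit3 (1.00). Between genotypes it differed for Chac1 in iTreg (-1.24).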

How the results depend on the processing

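No called value changed sign under any alternative. These counts are over all 10 genes, Atf5 and Cebpb included. The number called between genotypes in Th17n DFMO went from 2 to 1 on log2(TPM + 1) and log2(TPM + 0.1). In iTreg ctrl it went from 2 to 4 without the filter and to 1 on log2(TPM + 1), in the fit of the compared groups and with animal as a random replicate block, and in iTreg DFMO from 5 to 3 in the fit of the compared groups. Between Th17n and iTreg in DFMO KO it went from 4 to 7 without the filter, on log2(TPM + 1), on log2(TPM + 0.1) and with animal as a replicate block. The genotype interaction in iTreg went from 1 to 2 with DESeq2 and without the filter, and to 0 on either TPM scale and in the fit of the compared groups. The cause was not tested. For the 8 genes above the filter in all libraries, the replicate block changed no call beyond those given with the results. Leaving out each library gave 0 to 1 called genes for genotype in Th17n ctrl and 1 to 2 in Th17n DFMO. It gave 1 to 3 in iTreg ctrl, 2 to 5 in iTreg DFMO, and 0 to 2 for the genotype interaction in iTreg. Counts for DFMO against ctrl are left out, since no test of it is given for Atf5 and Cebpb. For that comparison in Th17n WT, Atf4 and Sesn2 both lost their calls without ctrl or DFMO replicate 3. In Th17n KO, Chac1 lost its call without ctrl replicate 2 or 3 or DFMO replicate 3. Of 1400 single-gene values with 1 library left out, 47 lost a call and 8 gained one, and 38 uncalled values changed sign. These values include the DFMO comparisons of Atf5 and Cebpb, for which no test is given above.

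Over all genes, counts of calls split by direction moved by over 1.5 times on log2(TPM + 1) in some comparisons of DFMO and of differentiation. Those counts are given with the results. Totals of both directions moved by over 1.5 times only in comparisons of genotype and their interactions with DFMO. In Th17n DFMO 112 became 230 without the filter, 49 on log2(TPM + 1), 36 on log2(TPM + 0.1) and 28 to 70 without single libraries. In Th17n ctrl 334 became 203 on log2(TPM + 0.1) and 133 to 218 without single libraries. With the fit of the compared groups 582 became 299 in iTreg ctrl and 455 became 186 in iTreg DFMO, and without single libraries 280 to 383 and 263 to 727, the highest without iTreg DFMO WT replicate 2. The interaction counts of 36 in Th17n and 27 in iTreg became 68 and 103 with DESeq2, 132 and 146 without the filter, 123 and 4 in the fit of the compared groups and 57 and 57 with the replicate block. The Th17n count was 6 on log2(TPM + 1) and 0 on log2(TPM + 0.1), and without single libraries the counts reached 19 and 21 in Th17n and 16 to 99 in iTreg. Depth limits Atf5 and Cebpb most, whose differences rest on few counts.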
